A study of Bos taurus with 22 samples.

Results

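The comparison described here is that of feed-efficient with inefficient steers within the Angus (ANG) breed. It used subcutaneous backfat of 8 ANG steers out of the 22 steers in the series, the others being Charolais (CHAR, 6 steers) and Kinsella Composite (KC, a crossbred herd, 8 steers). Residual feed intake adjusted for backfat (RFIfat, in kg) is the feed a steer ate beyond what its growth and fatness would require, so a low value marks an efficient animal. The members were taken from the phenotype given for each steer. The inefficient group (H-RFI) held F20, F21, F28 and F32, with RFIfat of 1.17, 1.14, 1.64 and 0.75 kg. The efficient group (L-RFI) held F18, F23, F24 and F25, with RFIfat of -0.75, -1.13, -1.09 and -1.01 kg. All were finished on the same barley-based feedlot diet, and the fat was taken at slaughter. The steers are separate animals, but the sources used here do not say which of them share a sire or a year of birth.

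Subcutaneous fat stores triacylglycerol in adipocytes, and around those cells lie progenitors and fibroblasts that lay down matrix, vessels and nerves, and immune cells such as macrophages, mast cells and lymphocytes. Complement factors are made by adipocytes as well as by the other cells, hyaluronan and regulators of clotting largely by fibroblasts and endothelium, and their expression is known to change with inflammation and with tissue remodelling. In RNA from whole tissue, fewer cells of a type and less RNA per cell cannot be told apart. The label names adipocytes, but whole backfat was extracted. Of 14 adipocyte markers, CIDEA, a lipid droplet protein, was the single one that could be matched to an identifier, so the label could not be checked further; CIDEA was at 19.4 to 108 CPM in the 8 steers.

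Reads counted on genes ranged from 8224044 to 10655612 in H-RFI and from 8252972 to 11536772 in L-RFI steers, at which 3 counts, taken as the floor, amount to 0.26 to 0.365 CPM, read counts corrected for library size. Levels below are CPM after TMM normalization, and the log2 fold change (log2FC) is that of L-RFI against H-RFI, so a negative value means lower in efficient steers. F28 and F32, both H-RFI, lay at opposite ends of the first principal component (-35.1 and 34, against -6.7 to 13.8 for the other 6 steers), which carried 20.9% of the variance. Reads that the counting called ambiguous made up 0.37 to 0.512% in F18, F25 and F28 and 1.01 to 1.32% in the other 5 steers, a split that crosses the RFI groups.

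No gene passed FDR below 0.1 together with an absolute log2FC of at least 1 (0% of 13613 genes tested, smallest FDR 0.333, edgeR's quasi-likelihood test). At an unadjusted p under 0.05 there were 427 genes lower in L-RFI steers (3.14% of those tested) and 259 higher (1.9%), and 5% of the genes tested would be 681. The imbalance lay in the direction: 62.2% of these genes were lower in efficient steers, against 50.9% of all genes tested, whose median log2FC was -0.004. It was steeper at smaller p. Of 171 genes with p under 0.01, 141 were lower and 30 higher, and of 19 genes with p under 0.001, 16 were lower and 3 higher.

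The same lean showed in the size of the difference. A log2FC of -1 or less was found for 141 genes (1.04%), and of 1 or more for 41 genes (0.301%). Most of these genes had low levels: 50 and 17 had a mean of 1 to 3 CPM, and 49 and 19 a mean of 3 to 10 CPM. The lean was weaker where the size of the difference did not count: all 4 L-RFI steers lay below all 4 H-RFI steers for 221 genes (1.62%) and above them for 180 (1.32%). That lean depended on single steers. The lower and higher counts were 341 and 340 without F20, 488 and 498 without F28, and 412 and 467 without F24. Lower genes were the more numerous when any other steer was left out. By level, 70.6% of the genes with p under 0.05 and a mean of 1 to 3 CPM were lower, the largest share. It was 65.4% at 3 to 10 CPM, 61.3% at 10 to 30 CPM and 64.7% at 30 to 100 CPM. Above 100 CPM the split was nearly even, with 64 genes lower and 60 higher. The share of lower genes was 54.2% when F24 was left out and 68.7% when F32 was left out, the extremes over the 8 steers.

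**Figure D1:**
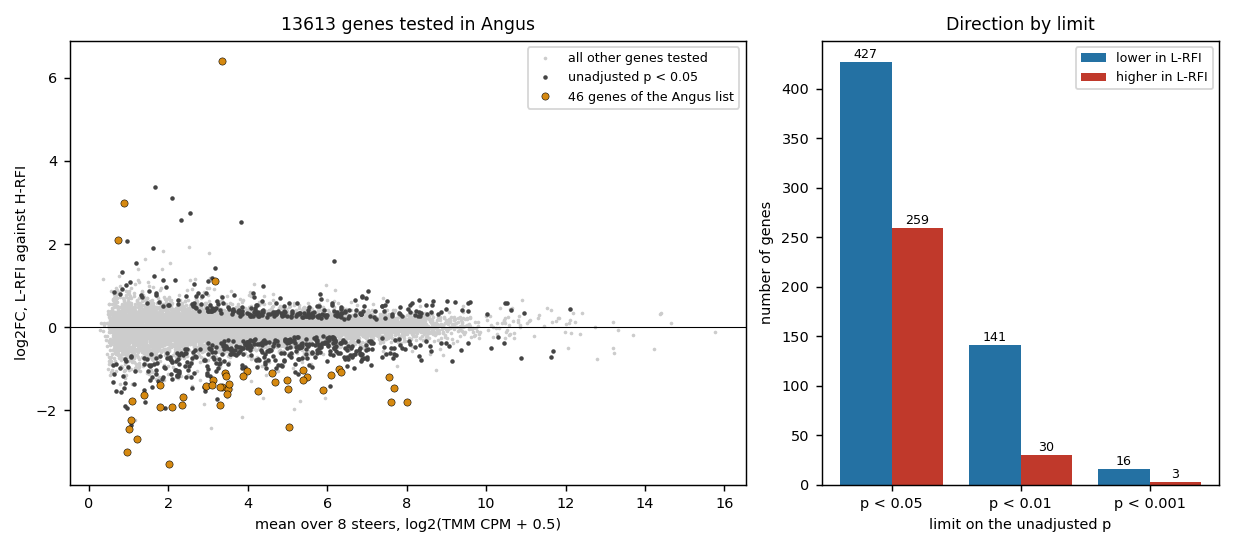
Left, the log2FC of L-RFI against H-RFI for each of 13613 genes over the mean level in the 8 Angus steers (log2 of TMM-normalized CPM + 0.5), with genes at an unadjusted p under 0.05 in dark grey and the 46 genes of the study's Angus list in orange. Right, the number of genes lower and higher in L-RFI steers at 3 limits on the unadjusted p of edgeR's quasi-likelihood test: 427 against 259, 141 against 30, and 16 against 3.

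The leading genes are those that the study's first supplementary gene table gives for Angus, 46 identifiers of which 43 carry a symbol. All 46 pass the same limits under edgeR's exact test on these counts, which called 42 genes lower (0.309% of those tested) and 4 higher (0.0294%). The list was therefore chosen on these same steers, and what follows on their levels in Angus is a description that supports no call. Under the quasi-likelihood test the members' unadjusted p ran from 4.54e-05 to 0.0217 and their FDR from 0.333 to 0.94, and each FDR given below is from that test. The 42 lower members had a median log2FC of -1.46 (-3.30 to -1.01), and the mean level in H-RFI steers was 2.01 to 9.74 times that in L-RFI steers. For 28 of the lower and all 4 of the higher members the groups did not overlap. Over all genes tested this held for 1.62% in the lower and 1.32% in the higher direction, and the choice of the list on these steers favours it. The low-count filter asked for more than 1 CPM in 4 or more of the 8 steers, and 7 members met it through 1 group alone: PERP, LGR5, NTS and TEX26 through H-RFI, and BOLA-DQB, SYCP3 and ENSBTAG00000026070 through L-RFI. To pass in that way, all 4 steers of one group must exceed 1 CPM before TMM and none of the other group may. The lack of overlap in these 7 members therefore follows from how they passed, and is no finding about them. Levels are given in the order F20, F21, F28 and F32 for H-RFI, and F18, F23, F24 and F25 for L-RFI.

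**Figure D2:**
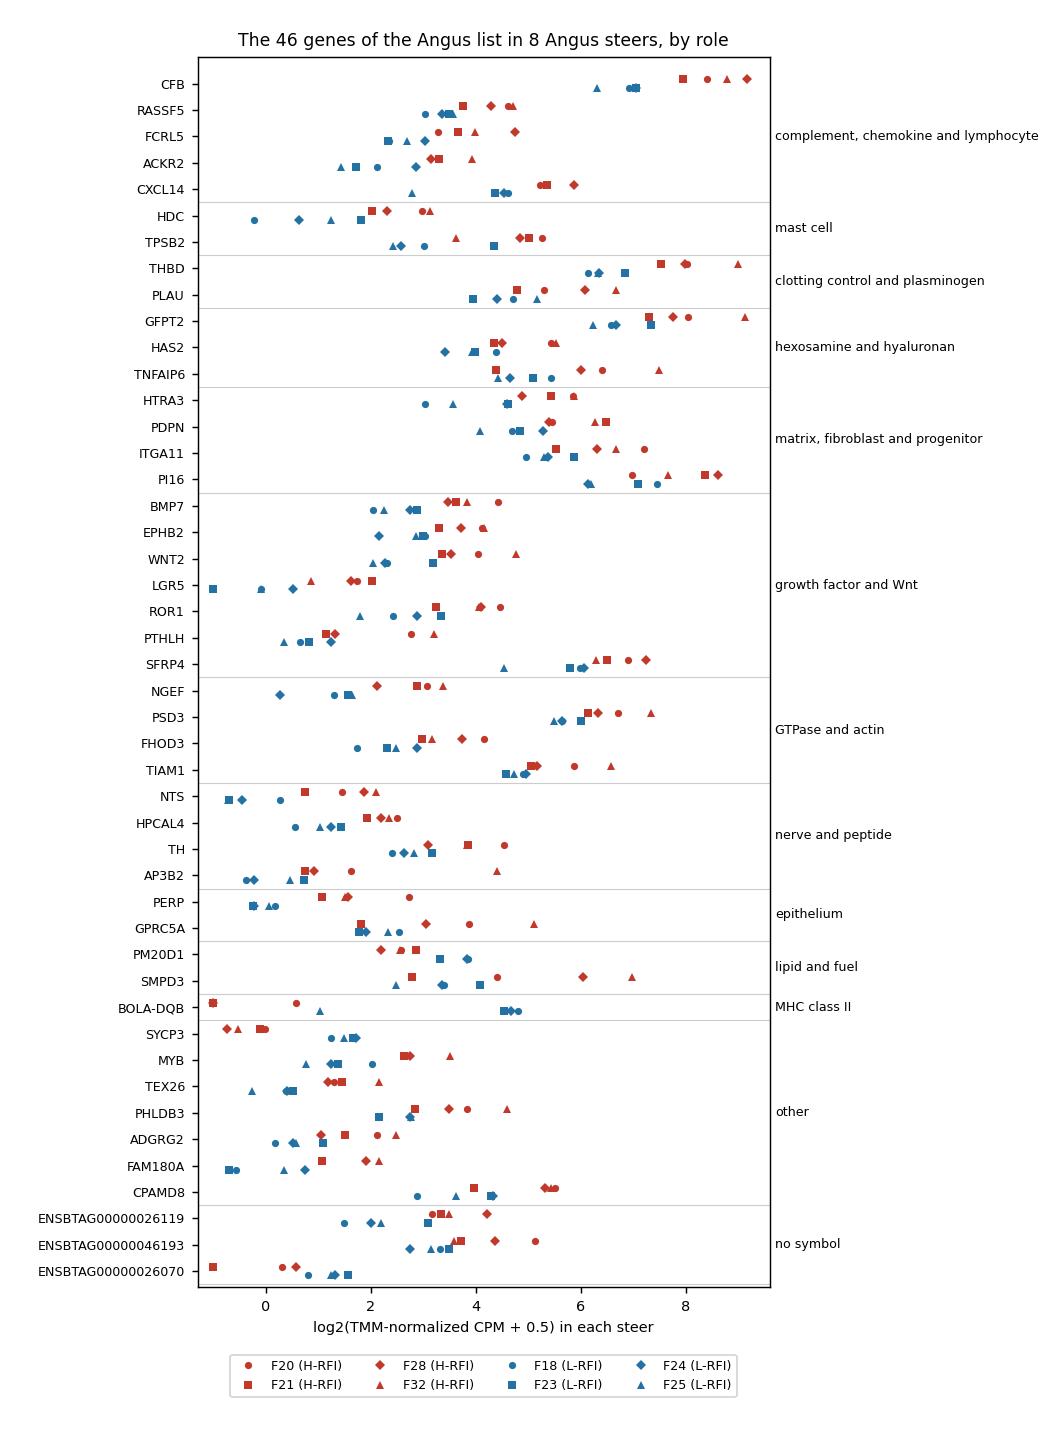
Level of each of the 46 genes of the Angus list in each of the 8 steers, as log2(TMM-normalized CPM + 0.5), with H-RFI steers in red and L-RFI steers in blue, a symbol shape for each steer, and genes grouped by role. The red points lie to the right of the blue ones for 42 genes on average, without overlap for 28 of them, and to the left for PM20D1, BOLA-DQB, SYCP3 and ENSBTAG00000026070.

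The smallest p among the lower members belonged to an immune gene. Complement factor B (CFB), the serine protease of the alternative pathway, was at 337, 246, 577 and 443 CPM in the 4 inefficient steers. In the efficient steers it was at 120, 132, 132 and 79.3 CPM, a narrow range that ended well below the lowest H-RFI steer. The means were 401 ± 143 and 116 ± 25 CPM (SD, n = 4 each), the log2FC was -1.79 (SE 0.26), and the FDR was 0.333.

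RASSF5, a Ras effector that controls lymphocyte adhesion, was at 24.1, 13, 19.1 and 25.7 CPM in H-RFI and at 7.73, 10.7, 9.69 and 11.3 CPM in L-RFI steers. FCRL5, an Fc receptor-like protein of B cells and plasma cells, was at 9.26, 12.2, 26.4 and 15.4 CPM against 4.62, 4.54, 7.70 and 5.93 CPM. ACKR2, a decoy receptor that removes inflammatory chemokines, was at 9.26, 9.34, 8.32 and 14.7 CPM against 3.82, 2.80, 6.77 and 2.20 CPM. In each of these 3 genes the groups did not overlap, and the steer on top was F32 for RASSF5 and ACKR2 and F28 for FCRL5. CXCL14, a chemokine made in epithelia and in fat, was at 36.7, 40.5, 58.4 and 40.3 CPM against 23.9, 20.2, 22.8 and 6.37 CPM. The groups did not overlap for CXCL14 either. Its lowest value, in F25, was far from the other L-RFI steers, and the log2FC was -0.98 without F25 against -1.26 with all steers.

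Both mast cell genes of the list were lower in efficient steers. TPSB2, a tryptase stored in mast cell granules, was at 38.1, 31.7, 28.3 and 11.8 CPM in H-RFI and at 7.55, 20, 5.49 and 4.83 CPM in L-RFI steers, so that F23 lay above F32 (exact permutation test, 2-sided, p = 0.0571). HDC, the enzyme that makes histamine, was at 7.40, 3.54, 4.46 and 8.21 CPM against 0.355, 3.03, 1.05 and 1.87 CPM, without overlap (p = 0.0286 by exact permutation, which is the lower limit for groups of 4). F23 was the highest L-RFI steer for both. Tryptase genes form a family of close copies, and the count of TPSB2 is uncertain where reads fit more than one of them. The other 7 mast cell markers fixed for the check could not be matched to identifiers, so the part of mast cell number in these values was not tested.

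Regulators of clotting and of plasmin formed a pair. THBD encodes thrombomodulin, the endothelial cofactor that turns thrombin towards anticoagulation, and was at 260, 185, 254 and 510 CPM in H-RFI and at 69.8, 114, 80.8 and 80.0 CPM in L-RFI steers. The means were 302 ± 143 and 86.1 ± 19.1 CPM (SD, n = 4 each), with a log2FC of -1.81 (SE 0.30, FDR = 0.397), and -1.43 without F32. PLAU, the urokinase that activates plasminogen, was at 39.1, 27.1, 67.0 and 102 CPM against 25.8, 15.0, 20.8 and 35.4 CPM. Its groups overlapped, since F25 exceeded F21, and the log2FC of -1.28 (SE 0.40) was -0.87 without F32.

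Hyaluronan is a large sugar polymer of the extracellular matrix, built from hexosamine-derived precursors. GFPT2, the rate-limiting enzyme of hexosamine synthesis, was at 263, 158, 215 and 557 CPM in H-RFI and at 95.0, 161, 102 and 74.5 CPM in L-RFI steers. HAS2, a hyaluronan synthase, was at 42.6, 19.9, 22.2 and 45.5 CPM against 20.4, 15.3, 10.2 and 14.8 CPM. TNFAIP6, which links hyaluronan to other matrix proteins during inflammation, was at 83.9, 20.4, 64.1 and 179 CPM against 42.9, 33.8, 24.6 and 20.9 CPM. In all 3 genes F32 was the highest steer and F21 the lowest H-RFI steer, and in none did the groups separate. Without F32 the log2FC was -0.97 for GFPT2 (-1.47 with all steers), -0.88 for HAS2 (-1.09) and -0.87 for TNFAIP6 (-1.50). HAS1, the further synthase that could be matched, did not pass the low-count filter; it was at 8.11 CPM in F32 and at 0.215 to 0.799 CPM in the other 7 steers.

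Matrix and fibroblast genes of the list had lower mean levels in efficient steers as well. HTRA3, a secreted serine protease that restrains TGF-beta signals, was at 57.1, 42.5, 29.1 and 58.1 CPM in H-RFI and at 7.73, 24, 23.7 and 11.3 CPM in L-RFI steers. PDPN, podoplanin, a mucin-type glycoprotein of lymphatic endothelium and activated fibroblasts, was at 43.2, 88.4, 41.5 and 76.4 CPM against 25.2, 28.2, 38.5 and 16.5 CPM. Neither overlapped between groups, with a log2FC of -1.49 (SE 0.36) for HTRA3 and -1.20 (SE 0.30) for PDPN. ITGA11, the alpha subunit of a collagen-binding integrin of fibroblasts, was at 148, 45.7, 79.3 and 102 CPM against 30.6, 58.0, 41.3 and 38.9 CPM. PI16, a marker of fibroblast progenitors in fat, was at 125, 330, 394 and 201 CPM against 174, 136, 69.7 and 72.9 CPM. Each of these last 2 genes overlapped between groups, through F23 for ITGA11 and through F18 and F23 for PI16.

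Growth factor and Wnt genes made up the largest role group, with 7 members. BMP7, a bone morphogenetic protein that favours brown fat differentiation, was at 21.1, 11.8, 10.6 and 13.8 CPM in H-RFI and at 3.64, 6.87, 6.19 and 4.28 CPM in L-RFI steers. WNT2, a secreted Wnt ligand, was at 15.9, 9.77, 11.1 and 26.8 CPM against 4.44, 8.62, 4.32 and 3.62 CPM. For both ligands the groups did not overlap. SFRP4, a secreted antagonist of Wnt ligands, also differed without overlap, at 119, 89.8, 152 and 78.2 CPM against 63.2, 55.1, 66.8 and 22.7 CPM. A Wnt ligand and an antagonist of such ligands were thus both lower.

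Among the receptors, ROR1, a receptor tyrosine kinase for Wnt5a, was at 21.5, 9.02, 16.6 and 16.1 CPM against 4.89, 9.67, 6.89 and 2.97 CPM, with F23 above F21. LGR5, the receptor for R-spondins that raises Wnt signalling, was at 2.84, 3.54, 2.57 and 1.32 CPM against 0.444, 0, 0.934 and 0.439 CPM, so the L-RFI values lay near the floor. EPHB2, a receptor for ephrin-B ligands, was at 16.8, 9.34, 12.7 and 17.3 CPM against 7.64, 7.46, 3.97 and 6.81 CPM. PTHLH, the parathyroid hormone-related peptide, was at 6.29, 1.72, 1.98 and 8.77 CPM against 1.07, 1.28, 1.87 and 0.769 CPM, which overlapped because F24 exceeded F21. Of 43 Wnt pathway symbols, 6 could be matched, and the 2 outside the Angus list had an unadjusted p above 0.05: NKD2, an inhibitor of the pathway, had a log2FC of 0.49 (SE 0.36) and FZD9, a receptor, of -0.42 (SE 0.50).

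The 4 members that regulate small GTPases or actin did not overlap between groups, as 28 of the 42 lower members did not. PSD3, an exchange factor for Arf6, was at 104, 70, 79.9 and 162 CPM in H-RFI and at 49.2, 63.5, 49.5 and 44.6 CPM in L-RFI steers. TIAM1, an exchange factor for Rac1, was at 58.0, 32.7, 35.5 and 95.5 CPM against 29.3, 23.5, 30.4 and 26.0 CPM. These 2 genes had tight L-RFI values and a wide H-RFI range topped by F32, and without F32 the log2FC was -0.71 for PSD3 (-1.01 with all steers) and -0.62 for TIAM1 (-1.02). NGEF, an exchange factor for small GTPases first described in neurons, had a log2FC of -1.87 (SE 0.40) and FHOD3, a formin that assembles actin filaments, of -1.26 (SE 0.33).

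Several members best known from nerve or epithelium were at low levels. NTS, the neurotensin precursor, was at 2.22, 1.18, 3.17 and 3.77 CPM in H-RFI and at 0.711, 0.116, 0.233 and 0.110 CPM in L-RFI steers, of which the last 3 were under the floor. TH, tyrosine hydroxylase, the first enzyme of catecholamine synthesis, was at 22.6, 13.9, 8.02 and 13.7 CPM against 4.80, 8.50, 5.72 and 6.59 CPM, with an overlap of F23 over F28. HPCAL4, a neuronal calcium sensor, was at 3.33 to 5.18 CPM against 0.977 to 2.21 CPM. AP3B2, the neuronal subunit of an adaptor complex, was at 20.8 CPM in F32 and at 1.18 to 2.59 CPM in the other H-RFI steers, and its log2FC of -3.30 was -1.37 without F32. PERP, a desmosome protein, was at 6.17, 1.61, 2.48 and 2.36 CPM against 0.622, 0.349, 0.350 and 0.549 CPM. GPRC5A, a retinoic acid-inducible receptor of epithelia, was at 14.1, 3.01, 7.82 and 34.2 CPM against 5.33, 2.91, 3.27 and 4.50 CPM, and its log2FC of -1.88 was -1.03 without F32.

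SMPD3, a neutral sphingomyelinase that releases ceramide, was at 20.6, 6.44, 65.9 and 126 CPM in H-RFI and at 10, 16.5, 9.81 and 5.05 CPM in L-RFI steers, so F21 lay among the efficient steers (exact permutation test, p = 0.171). The log2FC of -2.41 was -1.59 without F32 and -0.38 without F28 and F32. PM20D1 went the other way. It encodes a secreted enzyme that joins fatty acids to amino acids and is known to raise respiration in fat, and it was at 5.43, 6.76, 4.06 and 5.38 CPM in H-RFI and at 13.9, 9.44, 13.8 and 9.44 CPM in L-RFI steers. The means were 5.41 ± 1.10 and 11.6 ± 2.53 CPM (SD, n = 4 each), with a log2FC of 1.11 (SE 0.22, FDR = 0.523) that stayed between 0.99 and 1.23 when any one steer was left out.

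BOLA-DQB, a beta chain of the bovine MHC class II molecule DQ, was at 0.987, 0, 0 and 0 CPM in H-RFI and at 27.6, 22.8, 24.9 and 1.54 CPM in L-RFI steers. The raw counts were 8, 0, 0 and 0 against 311, 196, 213 and 14, so F25 stood far closer to the H-RFI steers than to its own group. Over all 22 steers, scaled together, 7 steers had more than 5 CPM and 7 had no count at all. Steers above 5 CPM were found in each breed and steers with no count in ANG and KC, and in CHAR the log2FC of -3.32 rested on the H-RFI steer F43, at 28.9 CPM, since it was -0.42 without that steer. Bovine DQ genes differ in number and sequence between haplotypes, and a count on one reference copy is uncertain.

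SYCP3, a protein of the meiotic synaptonemal complex, had the smallest p of the list. It was at 0.494, 0.429, 0.099 and 0.189 CPM in H-RFI and at 1.87, 2.68, 2.80 and 2.31 CPM in L-RFI steers, on 1 to 24 counts per steer. Its log2FC was 2.98 (SE 0.43, FDR = 0.333). On ARS-UCD2.0, a more recent assembly, RefSeq places it over CHPT1. Reads from overlapping genes may not be told apart, since the strand setting of the counting is not given. The spans of 11 further members also overlap another gene, among them GFPT2, SMPD3, ACKR2 and NGEF. Whole gene spans were compared, without regard to exons or strand, so whether counted reads are shared was not tested. The fourth gene with higher levels in efficient steers, ENSBTAG00000026070, has no symbol and was at 0 to 0.990 CPM against 1.24 to 2.45 CPM.

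The remaining 8 members were lower in efficient steers. MYB, a transcription factor of blood progenitors, was at 5.80, 5.69, 6.24 and 10.9 CPM in H-RFI and at 3.55, 2.10, 1.87 and 1.21 CPM in L-RFI steers. CPAMD8, a complement-related protease inhibitor, was at 45.3, 15.2, 39.7 and 42.6 CPM against 6.84, 19.1, 19.7 and 11.8 CPM. PHLDB3, ADGRG2, FAM180A, TEX26, ENSBTAG00000026119 and ENSBTAG00000046193 had log2FC between -2.25 and -1.17, and that of ENSBTAG00000046193 was -0.76 without F20. Of these 8 genes, 6 did not overlap between groups, the exceptions being CPAMD8 and ADGRG2.

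Many members were highest in F32. Among the 4 H-RFI steers F32 had the highest level for 24 of the 42 lower members (57.1%), while over all genes with a log2FC below 0 it was the highest in 34.1%. F20 led for 10 members, F28 for 6 and F21 for 2. F32 has the lowest RFIfat of its group, 0.75 kg, and F28 the highest, 1.64 kg. Genes picked for being highest in F32 cannot follow the order of the trait within that group, so no conclusion is drawn from their order. Of the 42 lower members, 8 had a log2FC above -1 once F32 was left out. The members were chosen for a small p in these 8 steers, and counts of members that keep one are largely fixed by that choice. An unadjusted p under 0.05 was found for 44 of 46 without F32 (4.88% of all genes), for 39 without both F28 and F32 (5.16%), for 36 in the 5 steers with more than 1% of ambiguous reads (2.68%) and for 43 with RFIfat in place of the groups (4.26%).

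**Figure D3:**
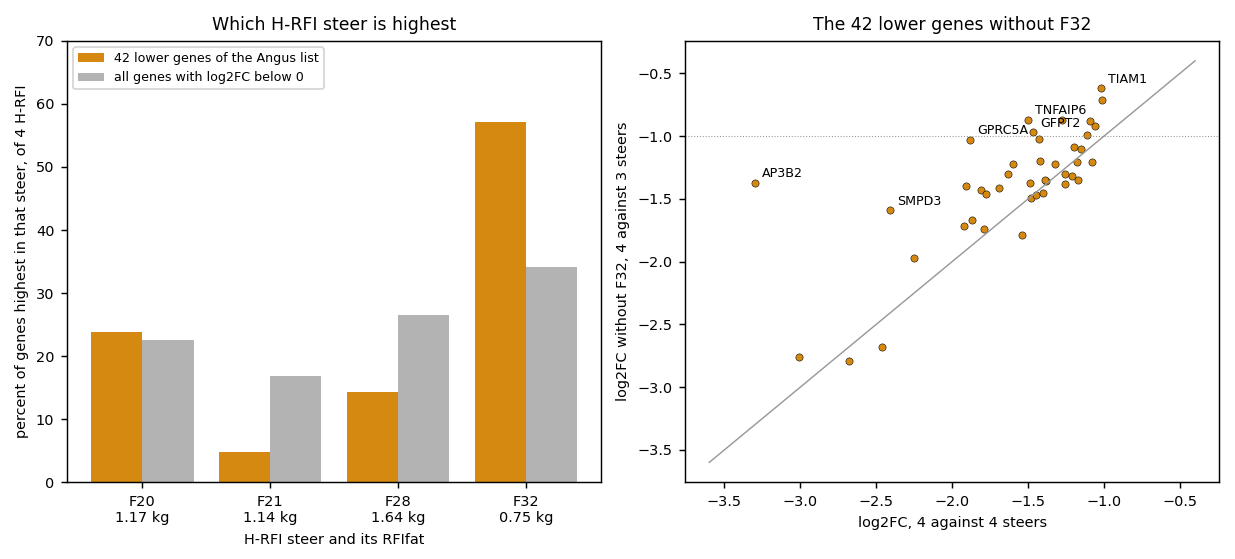
Left, the percentage of genes for which each H-RFI steer had the highest level of its group, for the 42 lower genes of the Angus list (orange) and all genes with log2FC below 0 (grey), with each steer's RFIfat. F32 is on top for 57.1% and 34.1%. Right, the log2FC of the 42 genes with all steers against that without F32, where points above the diagonal are nearer to 0 without F32. The dotted line marks -1, and labels mark genes whose log2FC shrank by more than 1.5 times.

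CHAR and KC steers took no part in the choice of the Angus list, and the same L-RFI against H-RFI comparison was made in them with each breed fitted alone. In CHAR (3 steers against 3), 38 of the 42 lower members could be tested and 30 of them (78.9%) had a log2FC below 0, against 50.6% of all genes tested there. In KC (4 against 4), 36 of 42 (85.7%) were below 0, against 49.9%. The median log2FC of these members was -0.40 in CHAR and -0.46 in KC, while the medians over all genes were -0.003 and 0. Both medians were nearer to 0 than the -1.46 of the steers on which the list was chosen. Of the 38 members tested in every breed, 28 (73.7%) were below 0 in all 3, and of all 6767 genes with a negative log2FC in ANG and tested in every breed, 33.5% were. The members are not independent of one another, and no test was made over them. When the CHAR steer F48 was left out, 18 of 38 were below 0. Leaving out any one KC steer gave 33 to 40 of 42.

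Few single members passed an unadjusted test in the other breeds. In CHAR, PDPN, PLAU, SMPD3 and THBD had p under 0.05 and were lower in L-RFI steers, where 2.21% of all genes were, and CXCL14 was higher, where 2.42% were. Of the 4 members higher in ANG, 3 were tested in CHAR, where 2 were above 0. BOLA-DQB was the third, and it was lower there with p under 0.05, against its direction in ANG. KC tested 1 of the 4, PM20D1, which was above 0. In KC, GFPT2, GPRC5A, PHLDB3, SMPD3, TEX26 and WNT2 were lower with p under 0.05, where 9.34% of all genes were, and no member was higher, where 8.9% of all genes were. The share in KC, 6 of 42, was not far from that background, while the 4 of 38 in CHAR lay above the 2.21% of all genes. The smallest FDR among the lower members was 0.947 in CHAR and 0.126 in KC. PLAU and SMPD3 are also in the study's list for CHAR, and GPRC5A, TEX26 and SMPD3 in that for KC, so for these genes the other breed's difference was part of their choice there.

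**Figure D4:**
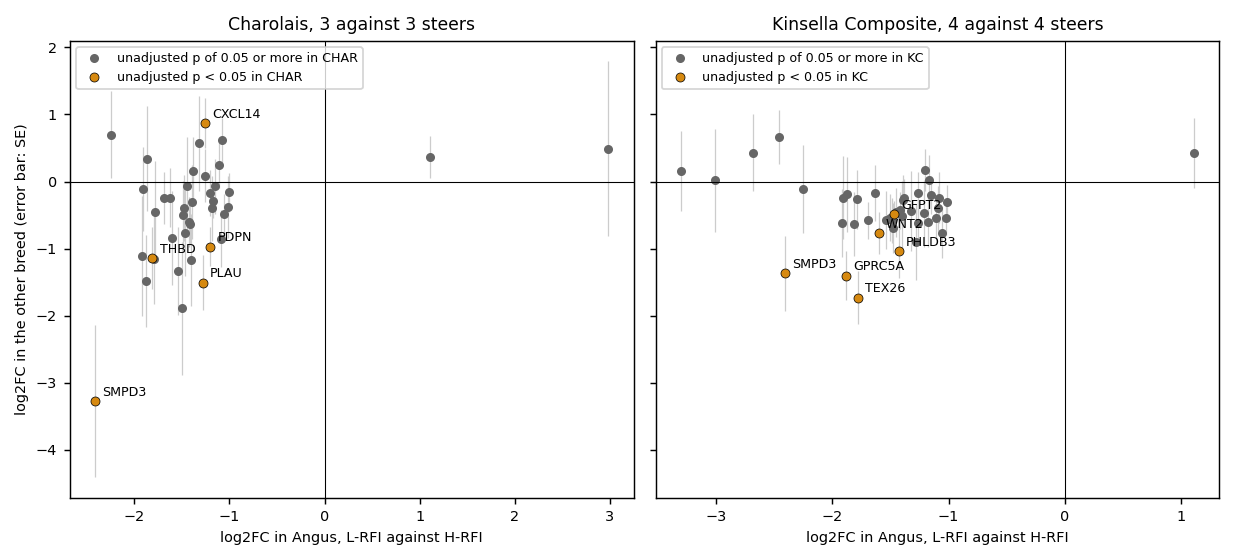
The log2FC of L-RFI against H-RFI for the genes of the Angus list in Angus (horizontal) and in Charolais or Kinsella Composite steers (vertical, error bars 1 SE), for genes tested in both breeds and without BOLA-DQB. Most points lie at the lower left, 30 of 38 and 36 of 42 of the genes lower in Angus, and those with an unadjusted p under 0.05 in the other breed are labelled.

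A test of the Angus effect against the mean effect of the other breeds, over all 22 steers, called no gene at FDR below 0.1 (0% of 14048, edgeR's quasi-likelihood test). LGR5 came nearest (FDR = 0.173). It passed the Angus filter through H-RFI alone and did not pass that in CHAR, where H-RFI steers were at 0.109 to 0.212 CPM, so the size of this difference is not given. In KC its log2FC was 0.66 (SE 0.40). Since the list was chosen on the Angus effect, the members' place in this test is not independent of that choice.

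**Figure D5:**
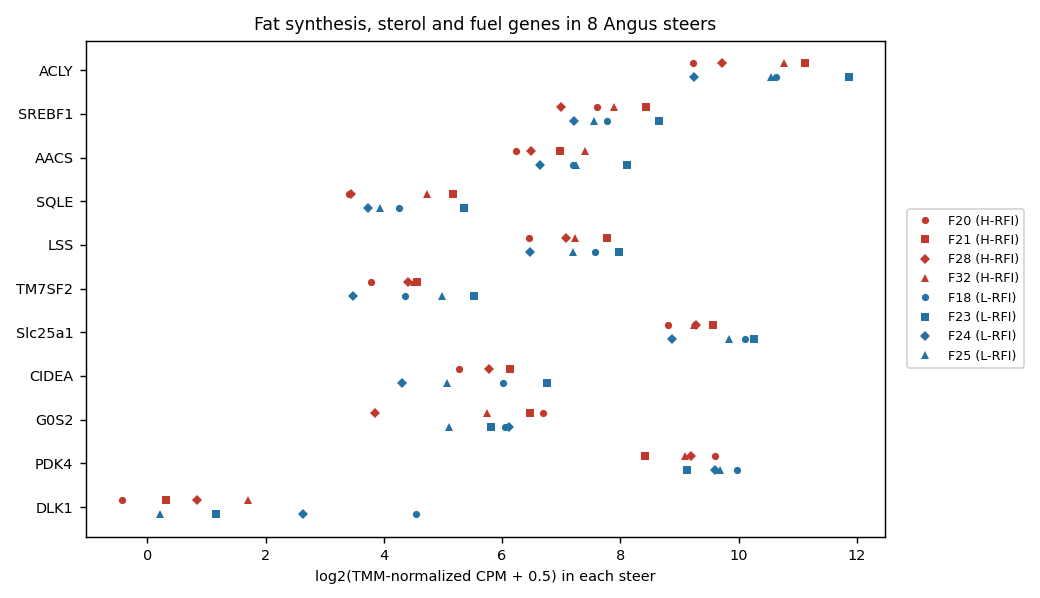
Level of 11 fat synthesis, sterol, lipid droplet and fuel genes in each of the 8 Angus steers, as log2(TMM-normalized CPM + 0.5), with H-RFI steers in red and L-RFI steers in blue. F23 is the highest steer for each of the 8 genes from ACLY to CIDEA, F20 or F24 the lowest for all of these but SREBF1, and the groups overlap for all 11 genes.

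Of 17 fat synthesis symbols, ACLY and SREBF1 could be matched, and both varied more within the RFI groups than between them. ACLY, which makes cytosolic acetyl-CoA from citrate, was at 603, 2240, 846 and 1740 CPM in H-RFI and at 1590, 3730, 607 and 1490 CPM in L-RFI steers. SREBF1, the transcription factor of lipogenesis, was at 195, 344, 127 and 236 CPM against 218, 403, 149 and 188 CPM. F21 and F23, on opposite sides of the RFI split, were the 2 highest steers for both genes and also for SQLE and LSS, enzymes of cholesterol synthesis. The log2FC was 0.45 (SE 0.54) for ACLY, 0.09 (SE 0.35) for SREBF1, 0.07 (SE 0.47) for SQLE and 0.19 (SE 0.33) for LSS. That of ACLY was -0.14 without F23.

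Some genes of citrate and ketone body use had higher mean levels in efficient steers. Slc25a1, the mitochondrial citrate carrier that supplies ACLY, was at 447, 755, 624 and 605 CPM in H-RFI and at 1100, 1220, 469 and 915 CPM in L-RFI steers (log2FC 0.61, SE 0.27, FDR = 0.979). AACS, which activates acetoacetate for lipid synthesis, had a log2FC of 0.57 (SE 0.33), and BDH1, which interconverts the ketone bodies, of 0.52 (SE 0.21). Without F23 these 2 values were 0.22 and 0.28. In KC the values of Slc25a1, AACS and BDH1 were -1.03 (SE 0.25), -1.16 (SE 0.26) and -1.08 (SE 0.36), but the 3 genes are in the study's list for KC, so that difference was part of their choice. In CHAR, which had no part in it, they were -0.55 (SE 0.44), -0.15 (SE 0.34) and 0.17 (SE 0.18). The difference between ANG and the mean of the other breeds had an FDR of 0.744 for each of the 3 genes.

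Genes of fuel use were uneven. PDK4, the kinase that turns pyruvate away from oxidation, was at 775, 343, 588 and 545 CPM in H-RFI and at 1010, 561, 781 and 822 CPM in L-RFI steers (log2FC 0.50, SE 0.25, and 0.32 without F21). G0S2, an inhibitor of triacylglycerol lipase, was at 103, 88.0, 14 and 53.2 CPM against 65.6, 55.7, 69.1 and 33.7 CPM (log2FC -0.20, SE 0.48, and 0.12 without F21). DLK1, a marker of preadipocytes, was at 0.247, 0.752, 1.29 and 2.74 CPM against 22.8, 1.75, 5.72 and 0.659 CPM, and its log2FC of 2.59 was 1.06 without F18.

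The study's lists for the other breeds give a further view of the Angus steers, since those lists were chosen without them. Of 93 genes listed for KC alone and lower there, 65 (69.9%) had a negative log2FC in ANG, where 50.9% of all genes tested did. This count rested on F32: without that steer 37 of the 93 (39.8%) were below 0, against 49% of all genes, while leaving out any other steer gave 61 to 76. Of 72 genes that were higher in KC, 47 were higher in ANG, and 40 without F32. Of 20 genes listed for CHAR alone and lower there, 10 were lower in ANG, and of 17 that were higher there, 7 were higher in ANG and 10 lower. The last count was 15 higher in the 5 steers with more than 1% of ambiguous reads. Of 191 genes with a symbol listed for the other breeds and tested here, 6 were lower and 5 higher with p under 0.05 (smallest FDR 0.812), close to the 3.14% and 1.9% of all genes tested. The lower ones included NFATC2, SLC7A1, SYNJ2, FSTL3 and ASRGL1. F32 was the highest steer for each of these 5 genes, and for ASRGL1, an asparaginase-like enzyme, it was at 260 CPM against 36 to 53.4 CPM in the other H-RFI and 25.4 to 46.9 CPM in the L-RFI steers, with a log2FC of -1.41 that was -0.21 without F32.

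The higher ones included LOC781004, DLK1, BDH1 and Slc25a1. PRX, periaxin, a myelin-associated protein of Schwann cells, was at 26.3 CPM in F24 and at 1.54 to 3.84 CPM elsewhere. This nerve gene was thus high in 1 efficient steer, and muscle genes did not follow the groups: TTN, the giant protein of the sarcomere, was at 53.9, 100, 152 and 212 CPM in H-RFI and at 75.6, 122, 48.2 and 145 CPM in L-RFI steers. Smooth muscle genes were close between groups, with log2FC from -0.17 to 0.05 for ACTA2, ACTG2, DES and KCNMB1.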

How the data were processed

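Total RNA of whole backfat was depleted of ribosomal RNA and sequenced from stranded libraries. After trimming, the authors placed the reads on the UMD3.1 assembly with TopHat2 (2.0.9), sorted the alignments with SAMtools (1.1) and obtained gene counts from HTSeq-count (0.6.1). They deposited raw read counts for 24616 Ensembl genes with 1 column per steer, which were used without change. The annotation release and the strand setting of the counting are not given in the sources used here. All 22 columns matched a steer by its title (columns left out: 0), and 0 columns were identical.

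The filter kept genes above 1 CPM in 50% or more of the Angus steers. They were TMM-normalized and tested with the quasi-likelihood test of edgeR (version 4.0.16, with limma version 3.58.1, in R version 4.3.3), with L-RFI against H-RFI as the only term. Each breed was fitted alone, except for the test of breed differences. Calls required FDR below 0.1 (Benjamini-Hochberg over all genes tested) and an absolute log2FC of at least 1. Single genes were also tested by exact permutation (2-sided, 70 arrangements) of log2(CPM + 0.5). On simulated counts for 13613 genes the quasi-likelihood test recovered 63.5% of changed genes at a log2FC of 1 and 96% at 2, with 9.93% and 6.8% of its calls at FDR below 0.1 false. The exact test recovered 75% and 98.5%, with 24.2% and 17.6% false. These counts were drawn from a negative binomial model with the fitted dispersions and held no outlying steers such as F28 and F32. The shares need not hold for the real counts. Precision is limited by 4 steers per group and, for low genes, by counting error, which is all that the floor of 3 counts covers.

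The alternatives were RLE factors, other filters, DESeq2 (1.42.0), edgeR's exact and likelihood ratio tests, RFIfat as regressor (per 2 kg), and leaving out steers. Named were all 46 genes of the study's Angus list by role, the 12 other genes with a symbol and the smallest p, and members of pathway and cell marker lists. A rule for further genes without overlap found none. Some genes that these rules name are not reported here. Symbols came from the study's gene table (242 of 257 identifiers), and of 354 symbols in the pathway and marker lists 41 could be matched, all of them genes of that table, so counts over these lists cover few members. RefSeq annotation of ARS-UCD2.0 served only to look up overlapping genes, found for 12 of 43 members, and no coordinates are given. Members and lists were chosen with earlier results of these data known. Tables were made in python (3.11.15) with pandas (2.3.3) and numpy (2.4.6), and figures with matplotlib (3.10.9).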

Additional observations from a re-analysis of the deposited data

Results flagged for a closer look

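A steer far from the other 3 of its group, by Dixon's ratio of gap to range, was found for 11 of 146 groups examined (73 named genes in 2 groups each). For normally distributed values chance alone marks about 1 in 20 groups. The ratio was taken on CPM and not on a log scale, so that rate need not hold here, and the number of flags was not tested against it. Levels are TMM-normalized CPM.

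In H-RFI, F32 was the steer apart for 6 genes, always as the highest. It was at 20.8 CPM for AP3B2 (1.18 to 2.59 in the others), 260 for ASRGL1 (36 to 53.4), 22.6 for SYNJ2 (6.76 to 9.41), 10.9 for MYB (5.69 to 6.24), 14.7 for ACKR2 (8.32 to 9.34) and 10.9 for KCNMB1 (9.21 to 9.5). F20 was the highest steer for ACVR1C, an activin receptor, at 30.4 CPM against 10.5 to 13.7, and had the only counts of its group for BOLA-DQB, 0.987 CPM against 0.

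In L-RFI, F24 was apart for the myelin-associated gene PRX, at 26.3 CPM against 1.54 to 3.84. F23 was at 8.62 CPM for WNT2 against 3.62 to 4.44, and F18 at 4.44 CPM for CXCL8, a neutrophil chemokine, against 0.70 to 0.932. What sets these steers apart was not tested.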

How the results depend on the processing

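The number of called genes depended on the test, from 0 in the quasi-likelihood test to 32 in DESeq2 (27 lower), 31 in edgeR's likelihood ratio test (26 lower) and 46 in its exact test (42 lower), of which 30, 27 and 46 were in the Angus list. With steers left out one at a time the exact test called 25 (without F25) to 92 genes (without F21), 17 to 43 of them in the list, and 24 members were called in 4 or fewer of these 8 fits. The count of the quasi-likelihood test was 0 with RLE factors, without or with a stricter filter, and in a fit of all 22 steers. It was also 0 with RFIfat as regressor, at FDR under 0.05 and with no limit on log2FC. With steers left out in the same way it was 0 to 1, and 1 without both F28 and F32. The genes called were BOLA-DQB, which has counts in 1 H-RFI steer, without F25, the L-RFI steer near 0, and ENSBTAG00000046041, singled out after its values were seen, without F28 (log2FC 6.26, FDR = 0.00867 in the quasi-likelihood test): it was at 0.247, 0.107, 5.05 and 0 CPM in H-RFI and at 7.37 to 10.8 CPM in L-RFI steers.

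The share of lower genes at p under 0.05 stayed above 50% in every alternative run, at 54.2 to 68.7% with a steer left out and 72.7% in the exact test. Genes at p under 0.05 numbered 365 in the 5 steers with over 1% of ambiguous reads, a smaller sample. Genes without overlap rose to 617 to 986 with a steer left out, to 1940 without F28 and F32 and to 2342 in those 5 steers, since fewer steers overlap less. The lower and higher counts were nearly even without F28 and F32 (979 and 961) and in those 5 steers (1170 and 1172). The lower members with a negative log2FC in CHAR numbered 18 to 34 of 38 with a CHAR steer left out, the lowest without F48. The test of breed differences called 16 genes in DESeq2 and 0 to 3 with an Angus steer left out, LGR5 among them without F24 or F32. Of the genes listed for KC alone and lower there, 37 to 76 of 93 were lower in Angus with an Angus steer left out, the lowest without F32. Of the 17 listed for CHAR alone and higher there, 4 (without F23) to 11 (without F28) were higher with a steer left out, 15 in the 5 steers and 12 without F28 and F32. These fits and those of the 5 and 6 steers were chosen after seeing the data. No member of the Angus list changed sign in any fit of the Angus steers in which it was tested. The choice of the list on these same steers largely fixed that outcome. The median log2FC over all genes tested moved by less than 0.1 with RLE factors. No paired analysis was possible because the steers carry no shared numbers.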
